A study of Arabidopsis thaliana with 8 samples.

Results

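Leaves of Arabidopsis thaliana treated with imidacloprid were compared with leaves of untreated plants, as 2 arrays against 2 of the 8 arrays in the series, over all 22746 probe sets that are not controls. The plants of both groups were wild type, strain Columbia-0, and 4 weeks old when the first group received 4 mM imidacloprid and the second received no agent. Fully expanded mature leaves were taken 4 days later, and each RNA sample came from 100 mg of leaf. The other groups, clothianidin and salicylic acid at the same dose and time, are used here only to estimate the spread between arrays and to test where imidacloprid leaves differ from the other treated leaves. The replicates of a group came from independent experiments, with 1 sample from each. Whole leaves mix many cell types, and in such bulk RNA fewer cells of a type and less RNA per cell cannot be told apart.

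Imidacloprid is a neonicotinoid insecticide that binds nicotinic acetylcholine receptors in the insect nervous system, a target that plants lack. Plants handle foreign small molecules in steps: cytochrome P450 enzymes oxidise them, UDP-glycosyltransferases and glutathione S-transferases attach a sugar or glutathione, and transporters move the products out of the cytosol. The same enzyme families also act on hormones and defence compounds, and a mature leaf otherwise devotes much of its transcription to photosynthesis.

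The labelled tissue was checked against marker genes. RCA, which encodes the activase of the carbon-fixing enzyme Rubisco, lay at 13.85 and 13.65 with imidacloprid and at 14.29 and 13.96 in untreated leaves, on the log2 scale of the deposited values. The root hair gene EXPA7 lay between 1.98 and 2.01 on all 4 arrays, and the seed oil body gene OLEO3 between 2.43 and 2.44. The root gene PYK10 was at 4.91 and 2.61 with imidacloprid and at 5.92 and 4.59 in untreated leaves, so it was not absent. Median levels of the arrays were 4.85 and 4.84 with imidacloprid and 4.90 and 4.94 in untreated leaves. The actin 3′ minus 5′ difference, a measure of RNA integrity that grows as RNA degrades, was 0.87 and 1.11 with imidacloprid and 0.85 and 2.17 in untreated leaves, so untreated replicate 2 stood apart. Its part in the results was not tested beyond the fits that leave this array out.

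The middle of the distribution of differences was narrow. The median difference, imidacloprid minus untreated, was 0.02 on the log2 scale, where 1 is a 2-fold difference, and the middle 50% of probe sets lay between -0.40 and 0.27. The array levels were close after processing, so a median near 0 says little about how many transcripts differed. Spread depended on level. Of 5 classes of about equal size by mean level, the dimmest had an SD of the difference of 0.12. The 3 brightest had 1.79, 1.57 and 1.47. The tails were wide: the 1st and 99th percentiles were -3.41 and 4.74. A probe set is called here without overlap when both imidacloprid arrays lay beyond both untreated arrays and the means differed by at least 1. By that rule 2391 probe sets were higher with imidacloprid (10.5% of all) and 2986 were lower (13.1%). Among the 17483 probe sets with a mean at or above 2.49, the average 25th percentile of the arrays and used here as the level near background, the shares were 13.6% and 17.0%.

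Sizes were not symmetric. At a difference of at least 2, 1188 probe sets were higher and 1085 lower. At 3 or more the counts were 658 and 361, at 4 or more 356 and 120, and at 5 or more 184 and 24. Past 6 there were 106 higher and 1 lower, and past 8 there were 26 higher and 0 lower. So lower probe sets were the more numerous at a minimum of 1, and higher ones at each of the larger minimums counted (2, 3, 4, 5, 6 and 8). The widest differences without overlap were 10.89 and -7.15. In 5 classes of about equal size by mean level, the dimmest, under 2.42, held 6 higher and 4 lower by this rule, whereas each of the 3 brightest classes of the same size held at least 678 higher and 794 lower. Without a minimum size, 9155 probe sets (40.2%) had both imidacloprid arrays above both untreated arrays and 5408 (23.8%) had both below. Dim probe sets were the most one-sided: of those under 2.49 on average, 61.1% were higher and 2.30% lower, and the median of the higher ones was 0.03.

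The replicates agreed on direction for most large differences. Taken within replicate number 1 and within number 2, the differences correlated at Pearson r = 0.718 across 22746 probe sets, which are not independent and share the array pairs, and 73.3% had the same sign. Among probe sets at or above the near-background level r was 0.720, and among the rest it was 0.110. With the numbers crossed, r was 0.698. Of the 6628 probe sets that differed by at least 1 in number 1, 88.1% had the same sign in number 2. The 2915 that were higher in number 1 had a median of 2.05 there and 1.20 in number 2, and the 3713 that were lower had medians of -1.81 and -1.11. At least 1 in both numbers was reached by 1631 upward and 2014 downward probe sets, and 163 went opposite ways. The SD of the difference between replicate arrays was 0.70 with imidacloprid and 0.85 in untreated leaves.

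**Figure D1:**
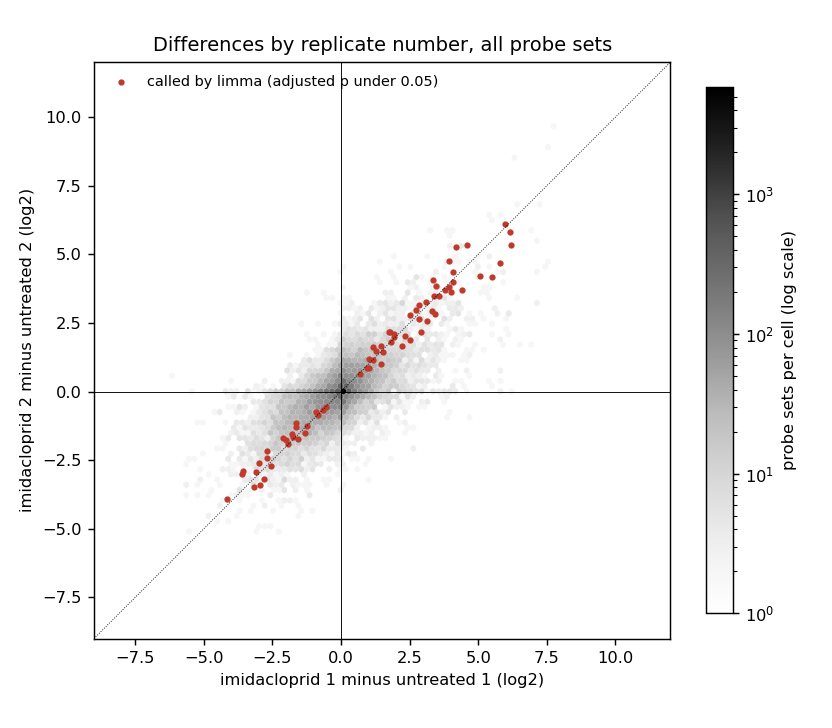
Log2 difference, imidacloprid minus untreated, within replicate number 1 (horizontal) and number 2 (vertical) for 22746 probe sets, with grey shade giving the number of probe sets per cell on a log scale. The 71 probe sets called by limma are red and lie along the dotted line of equal differences, and the grey cloud is wider (r = 0.718). The test favours probe sets whose replicates are close, so the position of the red points is no separate sign of agreement.

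limma's test across all probe sets called 71 of them (0.312%) at a Benjamini-Hochberg adjusted p of 0.05, 46 higher (0.202%) and 25 lower (0.110%). At an unadjusted p under 0.05 there were 1982 higher (8.71%) and 2403 lower (10.6%). The 46 that rose had a median difference of 2.93 and a range of 0.66 to 6.06. Of these, 31 rose by at least 2 and 12 by at least 4, and in 28 the untreated mean was under 3, close to background. The 25 that fell had a median of -1.90, and 11 fell by at least 2. No called probe set had overlapping groups. A single gene names 42 of the 71, and the other 29 carry no single gene name in the probe table used. The count depended on single arrays: it was 348 without imidacloprid replicate 1, 188 without imidacloprid replicate 2, 1 without untreated replicate 1 and 173 without untreated replicate 2. It was 107 without either clothianidin array, 465 without either salicylic acid array, and 0 without the 2 arrays of highest actin difference, untreated replicate 2 and clothianidin replicate 2, where 3538 probe sets had an unadjusted p under 0.05.

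**Figure D2:**
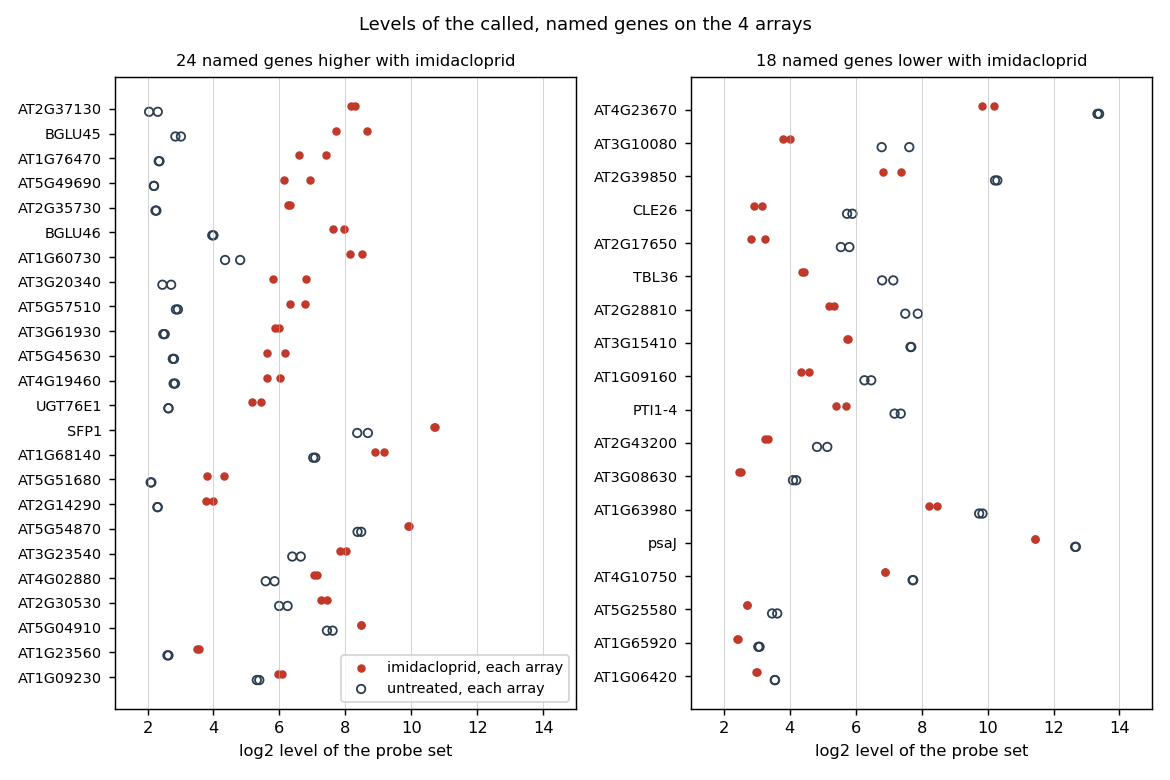
Log2 level of each called gene with a single name on the 2 imidacloprid arrays (filled red) and the 2 untreated arrays (open), 24 higher genes on the left and 18 lower genes on the right, each ordered by size. In no gene do the 2 groups overlap, and many of the higher genes have untreated arrays between 2 and 3.

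Calls were not counted by pathway, since 29 of the 71 called probe sets carry no single gene name and many others only a locus. BGLU45, annotated as a beta-glucosidase, an enzyme class that splits glucose from glucosides, lay at 8.66 and 7.71 with imidacloprid and at 2.84 and 3.01 in untreated leaves. Both imidacloprid arrays were far above both untreated arrays, which were close to background, and BGLU45 rose by 5.26 as measured (SE 0.36; limma adjusted p = 0.0334). Its neighbour BGLU46 lay at 7.96 and 7.62 with imidacloprid and at 3.96 and 4.00 in untreated leaves, again with no overlap, and rose by 3.80 (SE 0.24; limma adjusted p = 0.0283). UGT76E1, a UDP-glycosyltransferase gene, was at 5.16 and 5.43 with imidacloprid and at 2.64 and 2.63 in untreated leaves. Its arrays were tight within each group, but the untreated ones were close to background, so the size is not exact. As measured, UGT76E1 rose by 2.66 (SE 0.10; limma adjusted p = 0.0103). SFP1, of the sugar transporter family, was well expressed in both groups, at 10.70 and 10.72 with imidacloprid and at 8.36 and 8.68 in untreated leaves, and rose by 2.19 (SE 0.19; limma adjusted p = 0.0442).

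The smallest adjusted p belonged to AT2G35730, at 6.32 and 6.27 with imidacloprid and at 2.24 and 2.27 in untreated leaves. The untreated arrays were near background, so the size is not exact, and the gene rose by 4.04 as measured (SE 0.05; limma adjusted p = 0.000390). The widest was AT2G37130, at 8.30 and 8.17 with imidacloprid and at 2.31 and 2.05 in untreated leaves. AT1G09230, annotated as a protein of the U11/U12 spliceosome, which removes minor-class introns, showed the smallest named rise, 0.66 (SE 0.06; limma adjusted p = 0.0471). It lay at 6.07 and 5.96 with imidacloprid and at 5.39 and 5.31 in untreated leaves.

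Among the genes that fell, CLE26, for a small secreted signalling peptide of the CLAVATA3/ESR family, lay at 2.92 and 3.15 with imidacloprid and at 5.90 and 5.74 in untreated leaves. Its imidacloprid arrays came near background, and it fell by 2.79 (SE 0.21; limma adjusted p = 0.0362). TBL36, of a family that includes enzymes acetylating cell wall polysaccharides, lay at 4.44 and 4.39 with imidacloprid and at 7.14 and 6.80 in untreated leaves (limma adjusted p = 0.0375). PTI1-4, named for a protein kinase that interacts with the tomato kinase Pto, lay at 5.42 and 5.72 with imidacloprid and at 7.18 and 7.37 in untreated leaves (limma adjusted p = 0.0375). The plastid gene psaJ, for a small subunit of photosystem I, was among the brightest, at 11.42 and 11.44 with imidacloprid and at 12.66 and 12.68 in untreated leaves, and fell by 1.24 (SE 0.11; limma adjusted p = 0.0466). AT4G23670 had 10.21 and 9.84 in imidacloprid leaves and 13.38 and 13.33 in untreated leaves, far above background in both groups.

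The called genes were also tested against the other treatments, in contrasts that share the imidacloprid arrays and each probe set's estimate of the spread. A call against untreated leaves therefore makes a call in these contrasts likelier, and the counts are no separate evidence. For all 46 probe sets that rose, both imidacloprid arrays lay above all 6 other arrays, and for 22 of the 25 that fell they lay below all 6. The 6 include the untreated arrays, from which the called probe sets differ by choice. The share over all probe sets was not computed, so these counts do not measure specificity to imidacloprid. Against clothianidin leaves 22 of the 71 were called in limma's test (0.0967% of all probe sets were), 21 of them higher and 1, without a gene name, lower. Against salicylic acid leaves 18 were called, all higher (0.0835% of all probe sets were called in either direction). AT2G35730 was 4.04 higher than with clothianidin (limma adjusted p = 0.000390) and 4.06 higher than with salicylic acid (limma adjusted p = 0.000383). UGT76E1 was 2.71 higher than with clothianidin (limma adjusted p = 0.00945) and 2.70 higher than with salicylic acid (limma adjusted p = 0.00962). BGLU46 was 3.91 and 3.78 higher than with clothianidin and salicylic acid (limma adjusted p = 0.0342 and 0.0375). AT2G37130, in contrast, was 2.86 higher than with clothianidin and 1.75 higher than with salicylic acid, and neither passed (limma adjusted p = 0.177 and 0.292). TBL36 was 0.39 lower than with clothianidin at an adjusted p of 0.456 in limma, with levels of 5.04 and 4.56 in clothianidin leaves. With a replicate block in the fit, 2 and 3 of the called members passed against clothianidin and salicylic acid.

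The remaining description goes by gene lists. A list stands only for its measured members, the listed loci that a probe set names in the probe table used. For 8730 probe sets that table names no gene, so other listed genes may lie among them. Of 13286 matched loci, 1535 carry a symbol other than the locus name. Outside the called genes, members are given by their values, and none of them passed limma's test. Counts without overlap are to be read against the shares over all probe sets, 10.5% higher and 13.1% lower, or 13.6% and 17.0% above the near-background level, and no test compares a list with the rest. Apart from called genes, those named are the up to 4 members of a list with the widest difference and no overlap, and any other is marked.

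**Figure D3:**
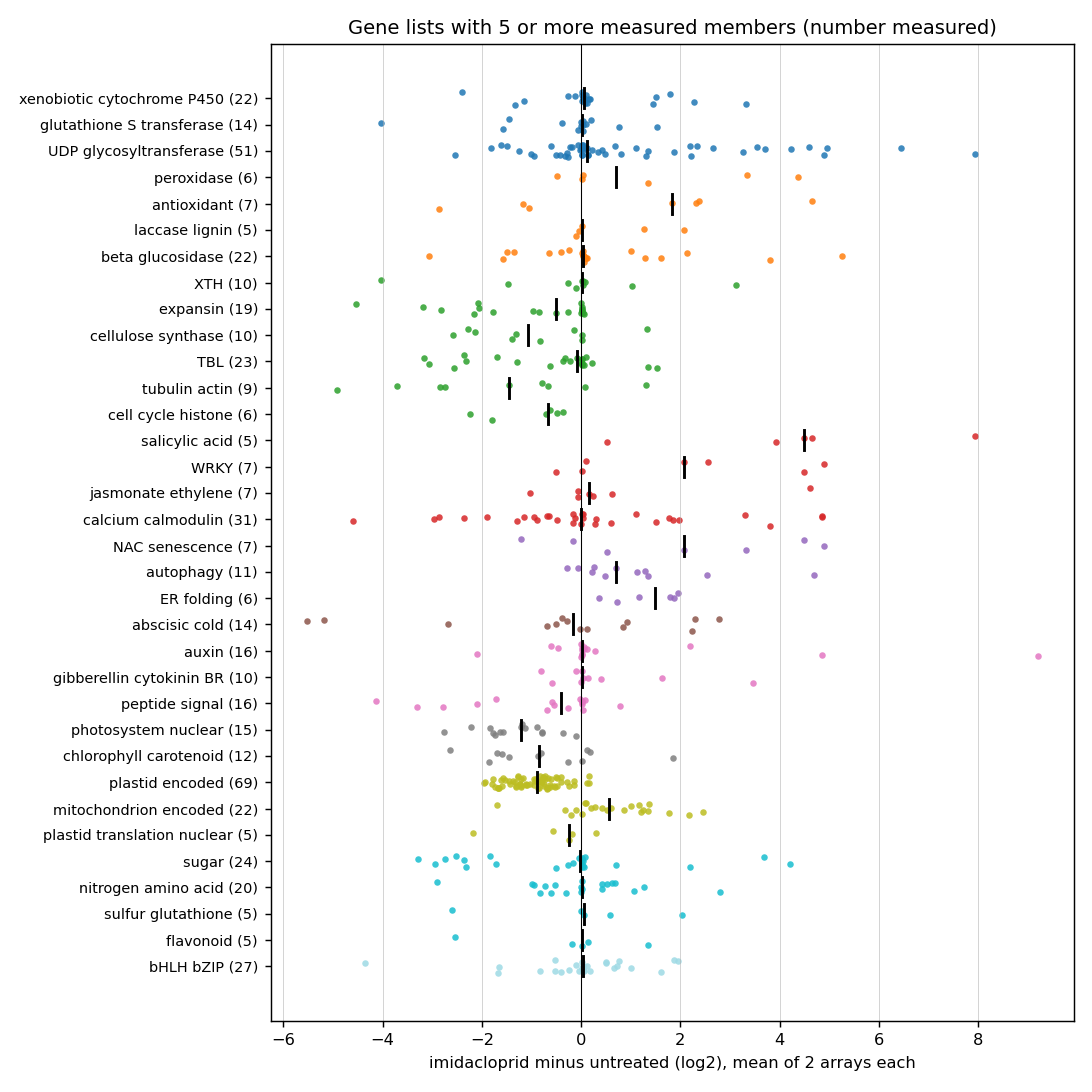
Log2 difference, imidacloprid minus untreated, of each measured member (points, jittered vertically) of the gene lists with 5 or more measured members, with the number measured in brackets, colours separating the roles of the lists and a black bar at each list's median. Among these lists, the measured salicylic acid genes (5 of 50 listed) have the highest median (4.50). The measured tubulin and actin genes (9 of 25 listed) have the lowest (-1.46). Several families with a median near 0 spread widely to both sides.

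Among the measured members of the detoxification lists, glycosyltransferases carried the widest differences. Coverage was uneven, with 51 of 64 listed glycosyltransferases measured, against 22 of 240 cytochrome P450 genes and 14 of 49 glutathione S-transferases. The families as wholes are thus not ranked. Of the 51 UDP-glycosyltransferase genes matched by symbol or synonym, 17 were higher and 5 lower without overlap. Among these 51, 1 was called, and their median was 0.13, against 0.02 over all probe sets. Called genes named only by locus, such as AT5G49690 with a difference of 4.34, were in no list. Calls in a family can therefore be missed here. The spread was uneven between subfamilies. In UGT73, 6 of 7 members were higher and 0 lower, with a median of 4.22, of 3.26 in number 1 and 3.86 in number 2. In UGT76E 3 of 4 were higher with a median of 2.26, of 1.40 in number 1 and 3.13 in number 2. In UGT71, by contrast, 2 of 9 were higher and the median was 0.01. UGT76B1, which glycosylates the defence signal isoleucic acid and salicylic acid, lay at 9.22 and 10.93 with imidacloprid and at 2.13 and 2.15 in untreated leaves (limma adjusted p = 0.0707). UGT76E12 lay at 8.16 and 10.36 with imidacloprid and at 2.86 and 2.77 in untreated leaves. UGT73C7 was at 6.86 and 8.73 with imidacloprid and at 2.84 and 2.86 in untreated leaves. In each of these genes the imidacloprid arrays were far above the untreated arrays and replicate 2 was the higher imidacloprid array. Their untreated arrays were close to background, so the sizes are not exact. For UGT76E12 and UGT73C7 limma's adjusted p was 0.0916 and 0.0730. The neighbouring pairs UGT73B5 and UGT73B4, and UGT73D1 and UGT73C7, had differences of 4.90 and 4.60, and of 4.22 and 4.94. UGT73B4 and UGT73D1 were chosen after their values were seen.

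The measured members of the oxidising and glutathione-conjugating families had medians near 0. They were only a part of each list: 22 of 240 cytochrome P450 genes and 14 of 49 glutathione S-transferase genes in the annotation. Of 22 measured cytochrome P450 genes of the xenobiotic list, 18 of them CYP71B, 5 were higher and 2 lower without overlap, with a median of 0.05. CYP71B6, for an enzyme of indole metabolism, lay at 10.88 and 11.05 with imidacloprid and at 8.53 and 8.84 in untreated leaves, clear of each other on the arrays. CYP71B23 was at 10.19 and 8.67 with imidacloprid and at 4.54 and 7.68 in untreated leaves. CYP71B34 was the other way, at 5.17 and 4.72 with imidacloprid and at 7.48 and 7.21 in untreated leaves. Of 14 glutathione S-transferase genes 1 was higher and 3 were lower, near the overall shares, with a median of 0.02. GSTU20, of the plant-specific tau class, lay at 7.72 and 4.23 with imidacloprid and at 10.49 and 9.52 in untreated leaves, and GSTU28 at 3.16 and 4.60 with imidacloprid and at 2.32 and 2.39 in untreated leaves. The 1 measured efflux carrier of the MATE family, AT5G52050 (DTX50), which exports abscisic acid, was at 7.33 and 10.19 with imidacloprid and at 2.99 and 4.91 in untreated leaves.

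Redox genes went both ways. Of 7 antioxidant genes 4 were higher and 3 lower without overlap, with a median of 1.82, of 1.21 in number 1 and 1.73 in number 2. GR1, glutathione reductase, lay at 9.29 and 9.21 with imidacloprid and at 7.11 and 6.76 in untreated leaves, and the monodehydroascorbate reductase gene ATMDAR2 at 10.94 and 10.02 with imidacloprid and at 7.92 and 8.29 in untreated leaves. TAPX, the ascorbate peroxidase of thylakoids, was lower, at 6.29 and 6.81 with imidacloprid and at 9.92 and 8.91 in untreated leaves. The class III peroxidases matched by symbol gave 2 higher of 6, and their replicates differed: AT5G64120 (PRX71) was at 10.30 and 6.27 with imidacloprid and at 2.94 and 4.88 in untreated leaves. The called gene AT2G37130, also for a peroxidase, is named only by its locus and stands outside this list. Its difference was 5.99 in number 1 and 6.12 in number 2. Of 22 beta-glucosidase genes 6 were higher and 3 lower, with both calls in BGLU45 and BGLU46 and a median of 0.05.

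Among the measured genes of defence and hormone conjugation the widest difference was that of GH3.3. UGT76B1, given above and also on the salicylic acid list, differed by 7.94. All 5 measured genes of the salicylic acid list had a positive difference, 4 without overlap, with a median of 4.50, of 6.13 in number 1 and 2.87 in number 2. BSMT1, which methylates benzoic and salicylic acid, was at 5.98 and 6.52 with imidacloprid and at 2.33 and 2.33 in untreated leaves. GRX480, a glutaredoxin that acts with TGA transcription factors, was at 10.52 and 10.63 with imidacloprid and at 3.39 and 8.47 in untreated leaves, and the WRKY factor gene WRKY53 at 9.88 and 9.76 with imidacloprid and at 3.75 and 6.89 in untreated leaves. Both were level on the imidacloprid arrays, and untreated replicate 2 was far above untreated replicate 1. The lists of WRKY and senescence genes, which share members with this one, had medians of 3.17 and 4.29 in number 1 and of 0.21 and -0.17 in number 2. Among auxin genes, 3 of 16 were higher and 0 lower, and 9 were near background. GH3.3, whose enzyme conjugates auxin to amino acids, was at 12.45 and 13.80 with imidacloprid and at 2.90 and 4.94 in untreated leaves, a gap of 9.20 (SE 1.21; limma adjusted p = 0.0733). WES1 (GH3.5), of the same enzyme family, was at 7.23 and 8.01 with imidacloprid and at 2.80 and 2.74 in untreated leaves.

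Of 31 measured calcium-related genes 8 were higher and 7 lower without overlap, with a median of 0.00. The families in this list, whose difference from each other was not tested, are given separately. Of 8 calmodulin-like genes 5 were higher and 1 lower, with a median of 1.31, of 1.83 in number 1 and 0.80 in number 2, and CML37 lay at 7.47 and 7.52 with imidacloprid and at 2.57 and 2.72 in untreated leaves. Of 15 IQD genes, which encode calmodulin-binding scaffold proteins linked to microtubules, 0 were higher and 5 lower, with a median of -0.64, of -1.22 in number 1 and -0.18 in number 2. The gene iqd21 was at 2.90 and 2.46 with imidacloprid and at 8.65 and 5.90 in untreated leaves, so its imidacloprid arrays approached background. Of 8 glutamate receptor-like channel genes 3 were higher and 1 lower, with a median of 1.19, of 2.05 in number 1 and 0.00 in number 2. The neighbours GLR2.9, GLR2.8 and GLR2.7 had differences of 1.85, 1.98 and 1.77, and on imidacloprid replicate 2 GLR2.9 and GLR2.8 were at 2.36 and 2.60, the level of the untreated arrays. All 3 were chosen after their values were seen.

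Turnover and protein folding lists had positive medians. Of 11 autophagy genes, 9 of them for ATG8 proteins that coat the autophagosome membrane, 5 were higher and 0 lower without overlap, with a median of 0.71, of 0.70 in number 1 and 0.81 in number 2. ATG8H was at 9.73 and 11.03 with imidacloprid and at 5.72 and 5.67 in untreated leaves. APG8A (ATG8A) was at 11.04 and 10.63 with imidacloprid and at 8.25 and 8.34 in untreated leaves. Of 6 genes of the endoplasmic reticulum list 4 were higher and 0 lower, with a median of 1.48. Its transcription factor gene BZIP28, for a membrane-bound sensor of misfolded protein, lay at 9.32 and 9.80 with imidacloprid and at 7.36 and 7.85 in untreated leaves. Of 4 heat shock genes 3 were higher, among them ATHSP22.0 at 6.54 and 6.88 with imidacloprid and at 2.63 and 2.18 in untreated leaves (limma adjusted p = 0.0666).

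Growth and cell wall lists differed among themselves. Of 9 tubulin and actin genes 5 were lower and 1 higher without overlap, with a median of -1.46, of -1.77 in number 1 and -1.14 in number 2. TUB5, for a beta-tubulin, lay at 5.63 and 4.93 with imidacloprid and at 10.45 and 9.94 in untreated leaves, with replicates close together beside the gap between groups (difference -4.92, SE 1.12; limma adjusted p = 0.126). TUB7 lay at 3.15 and 4.94 with imidacloprid and at 8.12 and 7.40 in untreated leaves, and TUB6 at 7.41 and 7.38 with imidacloprid and at 10.84 and 9.61 in untreated leaves. The 1 that was higher was the alpha-tubulin gene TUA1, at 8.38 and 8.99 with imidacloprid and at 7.60 and 7.14 in untreated leaves, chosen after its values were seen. Of 19 expansin genes, whose proteins loosen the wall, 0 were higher and 4 lower, near the overall share, with 8 near background. Their median was -0.51, but 0.01 in number 1 and -0.12 in number 2, and 8 members had a positive and 11 a negative difference. EXLB1 was at 3.74 and 2.04 with imidacloprid and at 7.42 and 7.44 in untreated leaves. Of 10 cellulose synthase-like and xylan genes 1 was higher and 4 lower, with a median of -1.08, of -0.49 in number 1 and -1.09 in number 2. Of 23 TBL genes 1 was higher and 6 lower, with TBL36 the 1 called, a median of -0.09 and 10 positive differences. Of 10 XTH genes, whose enzymes cut and rejoin xyloglucan, 1 was higher and 2 lower, with a median of 0.03 and 6 positive differences: XTH29 was at 4.90 and 5.49 with imidacloprid and at 2.00 and 2.16 in untreated leaves, and XTH32 at 3.79 and 3.74 with imidacloprid and at 8.87 and 6.72 in untreated leaves. All 6 measured cell cycle and histone genes had a negative difference, 2 of them without overlap, with a median of -0.67, of -1.25 in number 1 and -0.29 in number 2.

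Signalling peptides gave 0 higher and 5 lower of 16, with 1 called, CLE26. Their median was -0.41, but only -0.17 in number 1 and -0.11 in number 2, and 6 of the 16 had a positive difference. RALFL34, of the RALF peptides that alkalinise the apoplast, lay at 5.68 and 5.98 with imidacloprid and at 10.36 and 9.58 in untreated leaves. RALFL24 lay at 4.26 and 4.30 with imidacloprid and at 8.14 and 7.02 in untreated leaves. STOMAGEN, whose peptide from the mesophyll raises stomatal density, was at 5.09 and 6.25 with imidacloprid and at 8.93 and 6.62 in untreated leaves, where the lowest untreated array came close to the imidacloprid ones.

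Most measured photosynthesis genes had negative differences of moderate size. Of 3 light-harvesting genes 1 was lower without overlap and 1 had a positive difference. All 15 measured nuclear genes for photosystems, the ATP synthase and the NDH complex had a negative difference, 10 of them without overlap, with a median of -1.22, of -1.72 in number 1 and -1.15 in number 2. NdhL, for a subunit of the NDH complex, lay at 7.42 and 7.42 with imidacloprid and at 10.33 and 10.02 in untreated leaves. Of 4 Calvin cycle and photorespiration genes 3 were lower: SBPASE was at 10.53 and 9.85 with imidacloprid and at 12.41 and 11.66 in untreated leaves, PRK at 11.94 and 11.18 with imidacloprid and at 13.23 and 12.79 in untreated leaves, and HPR at 11.35 and 11.48 with imidacloprid and at 13.04 and 12.61 in untreated leaves. These 3 stayed far above background in both groups. Of 12 chlorophyll and carotenoid genes 5 were lower and 1 higher, with a median of -0.84, of -1.49 in number 1 and -0.17 in number 2. PORB, which makes chlorophyllide from protochlorophyllide in the light, was at 9.76 and 8.96 with imidacloprid and at 12.84 and 11.15 in untreated leaves, whereas HEMA2, for a glutamyl-tRNA reductase, was at 6.86 and 7.04 with imidacloprid and at 4.93 and 5.26 in untreated leaves.

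The plastid genome showed the same direction across its complexes. Of 69 measured plastid-encoded genes 66 had a negative difference, 30 were lower without overlap and 0 higher, with psaJ the 1 called. Their median was -0.89, of -0.99 in number 1 and -0.85 in number 2. By complex, the medians were -0.89 for photosystem I (5 genes), -0.66 for photosystem II (15), -0.80 for cytochrome b6f (6), -1.17 for the ATP synthase (6), -1.21 for the NDH complex (10), -1.11 for ribosomal proteins (15) and -1.19 for the RNA polymerase (4). The lowest was ndhK, at 11.12 and 9.82 with imidacloprid and at 12.45 and 12.41 in untreated leaves. Many plastid transcripts lie in shared operons, so these genes are not independent, and most carry no long poly(A) tail. The primer used in labelling is not given in the sources used here, and its part was not tested. For mitochondrial genes, 22 probe sets for 15 gene symbols had a median of 0.56, of 0.12 in number 1 and 1.13 in number 2, with 5 higher and 1 lower. For cox2, a subunit of cytochrome c oxidase, the values were 7.54 and 10.25 with imidacloprid and 5.81 and 7.08 in untreated leaves.

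**Figure D4:**
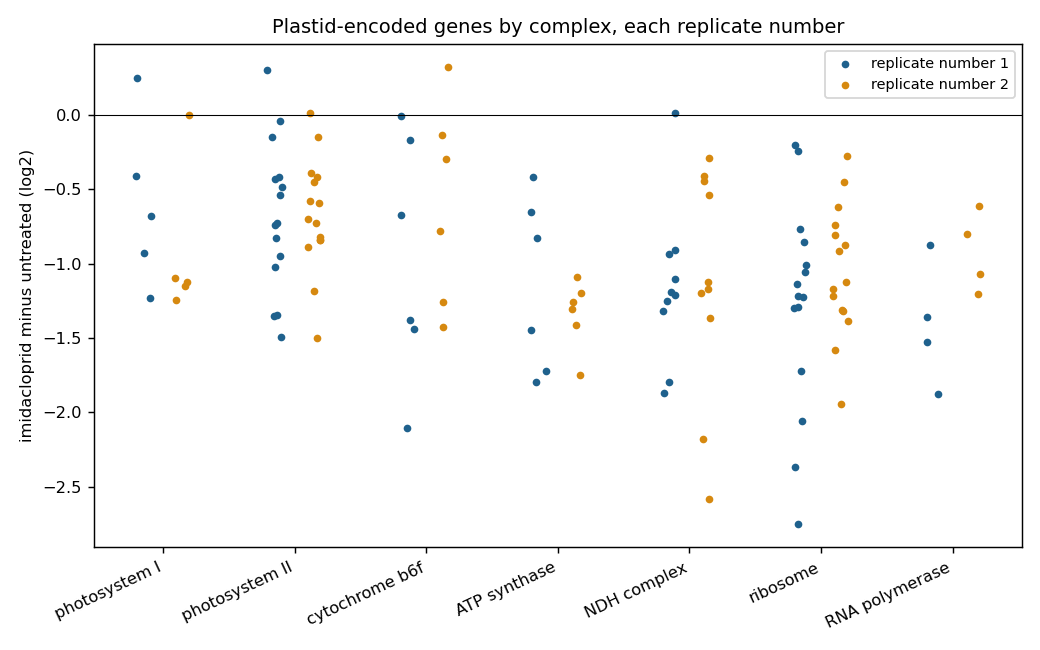
Log2 difference, imidacloprid minus untreated, of plastid-encoded genes grouped by complex, with replicate number 1 in blue and number 2 in orange, each point 1 gene. Nearly all points lie under 0 in both numbers, and the medians run from -0.66 (photosystem II) to -1.21 (NDH complex).

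Among transport and metabolism genes the sugar list split. Of 24 measured members 3 were higher and 8 lower without overlap, with SFP1 the 1 called and a median of -0.02. SWEET2, for a sugar transporter of the vacuole membrane, lay at 8.28 and 8.32 with imidacloprid and at 5.70 and 2.48 in untreated leaves. SWEET16, also vacuolar, lay at 3.27 and 2.83 with imidacloprid and at 6.04 and 6.63 in untreated leaves, and SWEET13, which exports sucrose, at 2.20 and 2.70 with imidacloprid and at 5.96 and 4.83 in untreated leaves. SFP2, the neighbour of SFP1, differed by -2.32, opposite in sign to SFP1, and was chosen after its values were seen. In the abscisic acid and cold list 2 of 14 were higher and 3 lower, near the overall shares, with a median of -0.16. Its neighbours COR15A and COR15B, for proteins that protect chloroplast membranes in the cold, had the widest negative differences: COR15A was at 7.66 and 7.22 with imidacloprid and at 12.15 and 13.78 in untreated leaves, and COR15B differed by -5.19, also without overlap. Both lay well above background throughout (limma adjusted p = 0.137 and 0.118). Nitrogen and aldehyde dehydrogenase genes gave 3 higher and 1 lower of 20, the share of higher ones near the overall share, with ALDH7B4, an aldehyde-detoxifying enzyme gene, at 12.38 and 13.82 with imidacloprid and at 9.74 and 10.87 in untreated leaves and ALDH3F1 at 5.07 and 4.96 with imidacloprid and at 8.69 and 7.12 in untreated leaves.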

How the data were processed

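Each deposited value is the log2 level of a probe set on an array. The authors used RMA and affy, per the submitters' processing notes, and versions, the order of steps and any later centring are not given in the sources used here. Of 22810 probe sets, 64 controls were left out. Gene names come from a probe table and the TAIR10.1 annotation, in which 13513 probe sets had a single gene, 13436 of them matched a locus, 503 had several genes and 8730 had none in the table. Where a locus had several, the gene lists used its brightest probe set by mean level. No column was left out. The number of arrays limits the precision.

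A linear model per probe set, with a mean for each group over all 8 arrays, was fitted by lmFit and moderated by eBayes (limma 3.58.1, under R 4.3.3), leaving 4 residual degrees of freedom. Tests were two-sided, with p-values adjusted by Benjamini and Hochberg's method in each contrast and a threshold of 0.05. The fit was tested on simulated data. Replicate deviations of imidacloprid and untreated arrays correlated at 0.0549, and those of the 6 pairs of groups at -0.00200 to 0.523, with 4 of the 6 over 0.1. Pairing was taken only where every pair passed 0.1, so the fit had no block, and an effect shared by replicate number in some groups cannot be told apart from the spread. Lists were matched by gene symbol or synonym and described by counts and medians without a set test. The named genes are the called single-locus probe sets, the up to 4 widest members without overlap of each list and called list members. The members and lists were chosen with earlier results of these data known, and name clashes (12), plastid genes in other lists and the 15 mitochondrial symbols were settled after list values had been seen. Alternatives were a robust prior with an intensity trend, a fit of the 4 arrays, a replicate block, a dim filter, median centring, quantile normalization, array weights and leaving out arrays. Lists with no member named in the probe table (such as ABC transporters, MYB factors and aquaporins) were not analysed here. Probe sets for such genes may be among those without a gene name. Figures used matplotlib 3.10.9 in Python 3.11.15.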

Additional observations from a re-analysis of the deposited data

How the results depend on the processing

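The number of calls moved with most settings. The signs of the called genes are no sign of stability, since their groups do not overlap and most settings leave the difference of means as it is. The count of 71 calls (46 higher, 25 lower) was 106 (77 higher) with an intensity trend and a robust prior, 174 (95 and 79) in a fit of the 4 arrays, 186 (122 and 64) without dim probe sets, 189 (134 and 55) with median centring, 353 (197 and 156) with array weights and 0 (0 and 0) without the 2 arrays of highest actin difference, where the smallest adjusted p was 0.0561. Leaving out 1 array gave between 1 and 465 calls, 1 to 302 higher and 0 to 263 lower. The lone array of a group is then assumed to vary like the other groups. The 1 call left without untreated replicate 1 was AT2G35730. Of the 71, 55 remained among the 71 called after repeated quantile normalization, 61 without dim probe sets, 20 in the 4-array fit, and 71 with array weights. The replicate block gave 43 calls, 36 higher and 7 lower, of which 23 were among the 71, and 30 of the 42 named genes no longer passed. With the block 2 of the called members passed against clothianidin and 3 against salicylic acid, where the trend gave 28. The counts of probe sets without overlap stayed within 1.5 times of their values, at 2311 to 3032 higher and 2729 to 3698 lower. Of the gene lists with at least 5 measured members, 8 had a median of at least 0.5, against 5 without imidacloprid replicate 1, and 7 had one of -0.5 or less, in a range of 5 to 10 over the alternatives. The 0.5 and the minimum of 5 were set after the medians had been seen. Of 478 recomputed list medians, 352 stayed within the spread between the replicate numbers and 126 did not. The causes were not tested. With 2 arrays a group, genes near background in one group have differences whose size is not exact.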

Other observations

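Of 19 plant control probe sets, which were left out of the tests, 8 had both imidacloprid arrays above both untreated arrays and 0 had both below. This count sets no minimum size, and by the same rule 40.2% of all tested probe sets were above and 23.8% below. Most of these controls were bright, and among tested probe sets at or above the near-background level the shares were 34.0% and 30.2%. The 0 below is under the overall share of lower probe sets, and the 8 of 19 are near the overall share of higher ones. These 8 were 3 of the 5 for GAPDH, a glycolytic enzyme, and the 5 for ubiquitin, and none of the 6 for actin was among them. A GAPDH 3′ probe set lay at 12.94 and 11.38 with imidacloprid and at 11.25 and 9.30 in untreated leaves. A ubiquitin 3′ probe set lay at 14.38 and 14.46 with imidacloprid and at 13.41 and 13.64 in untreated leaves. For that GAPDH probe set imidacloprid replicate 2 lay just above untreated replicate 1. An actin 3′ probe set differed by -0.03.

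Some families outside the lists, formed by gene symbol and chosen after their values were seen, also spread widely. Of 29 serine carboxypeptidase-like genes 1 was higher and 9 were lower without overlap, with 13 near background and a lowest difference of -4.13, in scpl25. Of 15 tetraspanin genes, for membrane-organising proteins, 1 was higher and 5 were lower, with TET7 at -3.31 and TET8 at 3.19. Of 9 PUB genes, for plant U-box ubiquitin ligases, 3 were higher and 0 lower, with PUB19 at 2.56. The 8 OTP genes gave 0 higher and 0 lower, with differences between -0.67 and 0.05.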
